A study of Saccharomyces cerevisiae with 2 samples.

Results

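The decision of a budding yeast cell to leave G1 and begin DNA replication was followed here through 10 genes: the DNA-binding factors *SWI4* and *MBP1*, their shared partner *SWI6*, the regulators *WHI5*, *STB1* and *BCK2*, the G1 cyclins *CLN1*, *CLN2* and *CLN3*, and the S-phase inhibitor *SIC1*. They were taken from the platform annotation by gene symbol, out of 5094 genes probed, and were picked after *SWI4* had been seen to be low in these same arrays. All 10 had probes and 8 had a value on both arrays, while neither probe of *SWI6* or of *CLN2* had a value on either array. Among all genes probed, 13.7% lacked a value on both arrays. Because the choice rests on this contrast, the ratios of the members are given as a description, with no test.

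The data come from a genetic interaction mapping (GIM) screen in *Saccharomyces cerevisiae*, run in 2 independent experiments with 1 Agilent array each. A pool of barcoded DAmP strains, in which the mRNA of a gene is destabilised, was crossed with 1 of 3 mutant strains, which the protocol leaves unnamed, and double mutant haploids were grown for 18 generations under G418 and nourseothricin. Both groups of cells were mixtures of haploids derived from BY4742/BY4741: a query pool carrying the deletion, labelled with Cy3, and a reference GIM pool, labelled with Cy5 on the same array. Titles name *PIH1* as the query and the descriptions name *RSA1*. No separate cultures are named, so the spread between the arrays may be partly technical. The arrays were treated as replicates of 1 group, and their number limits the precision of every value.

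Each value is a log ratio, read as log2, of the barcodes of a gene in the query pool over the reference pool, after centring each array on its median. A negative value then means fewer double mutants in the query pool. That direction is likely rather than stated: of 34 genes within 50 kb of *PIH1*, which are genetically linked to the query deletion and so rarely recombine with it, 30 were negative, with a median of -1.01. The 42 genes around *RSA1* had a median of 0.04. Array 2 was more widely spread than array 1, with a median absolute deviation over probes of 0.63 against 0.35. Probes name genes only, so the kind of allele behind a value is unknown, and the value measures strain abundance, not the mRNA or protein of the gene.

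Passage through Start in yeast turns on a large wave of transcription. SBF, made of Swi4 and Swi6, and MBF, made of Mbp1 and Swi6, bind the promoters of the genes of this wave. Whi5 holds SBF back during early G1, and the cyclin Cln3, with the kinase Cdc28, relieves that block. Cln1 and Cln2 then reinforce this wave of transcription and drive the destruction of Sic1, the inhibitor of S-phase cyclin kinases. Deletion of *WHI5* makes cells pass Start at a small size, and loss of both Swi4 and Mbp1 function is lethal.

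*SWI4* had the lowest ratio of the members, and *SIC1* the highest. The mean log2 ratio was -3.29 ± 2.46 for *SWI4* (SD, n = 2 arrays, here and below), -0.80 ± 0.41 for *MBP1*, -0.22 ± 0.02 for *CLN1*, 0.00 ± 0.43 for *STB1*, 0.20 ± 0.67 for *BCK2*, 0.39 ± 0.31 for *CLN3*, 0.65 ± 0.17 for *WHI5* and 1.34 ± 0.24 for *SIC1*. The genes of both DNA-binding subunits were thus negative, the gene of the SBF repressor and that of the S-phase inhibitor were positive, and the cyclin genes lay between. In that order, *CLN1*, *STB1*, *BCK2* and *CLN3* differed from their neighbours by less than the larger SD of each pair, as did *CLN3* and *WHI5*. *SWI4* and *MBP1* lay 2.50 apart, close to the SD of *SWI4* itself, *MBP1* and *CLN1* 0.58 apart, and *WHI5* and *SIC1* 0.69 apart, both more than the larger SD of the pair.

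**Figure D1:**
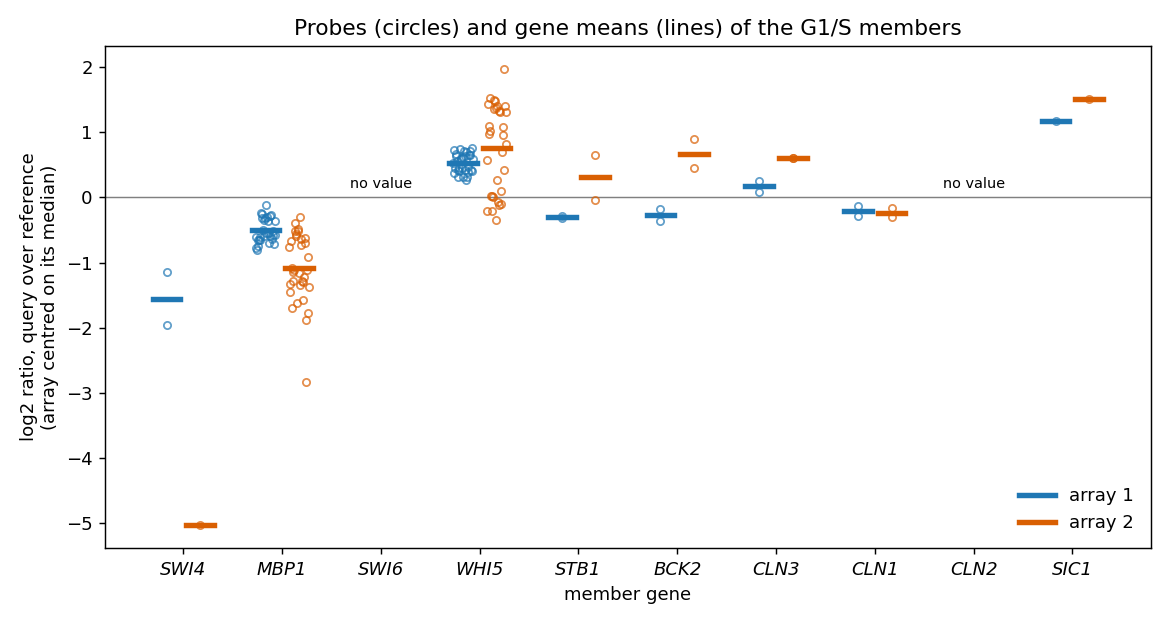
Centred log2 ratio of query over reference pool for each probe (circles) and the mean over probes (lines) of the 10 members on array 1 (blue) and array 2 (orange). *SWI4* lies at -1.55 and -5.04, *SIC1* at 1.17 and 1.51, and *SWI6* and *CLN2* have no value.

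*SWI4*, which encodes the DNA-binding subunit of SBF, stood at -1.55 on array 1 and at -5.04 on array 2. These are a 2.93-fold and a 32.8-fold lower share of its barcodes in the query pool. It was the 79th lowest of 4370 genes on array 1 and the 2nd lowest of 4224 on array 2, and the 3rd lowest by mean of the 4048 genes that were fitted. Both arrays were low, but they differed by 3.48, so the size of the ratio is poorly fixed.

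The value of *SWI4* on array 2 came from a single probe. Its probes read -1.96 and -1.14 on array 1, and only the first of them had a value on array 2. The gap of 0.82 between them on array 1 was larger than the gap of most genes with 2 measured probes, at percentile 97.1 of 2713 such genes, whose median gap was 0.15. With the first probe alone the mean was -3.50 ± 2.17. Of the genes with a value on array 2, 23.2% rested on 1 probe there.

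*MBP1*, which encodes the DNA-binding subunit of MBF and is related to *SWI4* by sequence, was low with smaller values. It stood at -0.51 on array 1 and -1.09 on array 2, which is 1.42-fold and 2.13-fold lower. It ranked 404th lowest of 4370 genes on array 1 and 201st lowest of 4224 on array 2. *SWI4* was lower than *MBP1* by 1.05 on array 1 and by 3.95 on array 2.

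*MBP1* had 34 probes, one of 11 genes spotted 32 times or more, so its value within an array rests on many spots. All 30 probes with a value on array 1 were negative, from -0.80 through a median of -0.56 to -0.12. All 33 with a value on array 2 were negative too, from -2.84 through -1.11 to -0.30, and 19 of them were at or below -1. Spots of one gene share its strains and are not replicates of the screen. Their SD was 0.19 on array 1 and 0.54 on array 2.

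*WHI5*, which encodes the repressor of SBF, stood on the other side of 0, at 0.53 on array 1 and 0.76 on array 2. It ranked 641st highest of 4370 genes and 862nd highest of 4224, so its ratio was modest among all genes. All 32 of its probes were positive on array 1, from 0.26 through a median of 0.55 to 0.76. On array 2, 26 were positive and 6 negative, from -0.34 through 0.97 to 1.98. *WHI5* was higher than *MBP1* by 1.04 on array 1 and by 1.85 on array 2.

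The probes of *WHI5* did not all read alike, and the arrays ordered them similarly. The 16 probes that were lower on array 1, between 0.26 and 0.53, lay between -0.34 and 0.98 on array 2 with a mean of 0.18. The 16 that were higher on array 1, between 0.56 and 0.76, lay between 0.95 and 1.98 on array 2 with a mean of 1.35, and 15 of them were at or above 1. Across the 32 probes the arrays correlated with r = 0.785, a description over spots that share 2 arrays and one gene. The cut into 16 and 16 was made by order on array 1, not at a gap in the values, and the sets overlapped slightly on array 2. The annotation used here does not say which barcode a probe reads, and the cause of the differences between probes was not tested.

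*MBP1* showed the same ordering less sharply. The 14 probes lower on array 1 had a mean of -1.37 on array 2 and the other 15 a mean of -0.84, and both sets were negative throughout. Over these 29 probes r was 0.642, with the same limits. The sign of *MBP1* therefore did not depend on which of its probes was read, whereas that of *WHI5* on array 2 did for 6 of 32. Such an ordering was not seen in *HAP5* and *RNR3*, the only other genes spotted 32 times or more with values on both arrays. There r was 0.135 over 16 probes of *HAP5* and -0.086 over 31 of *RNR3*.

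**Figure D2:**
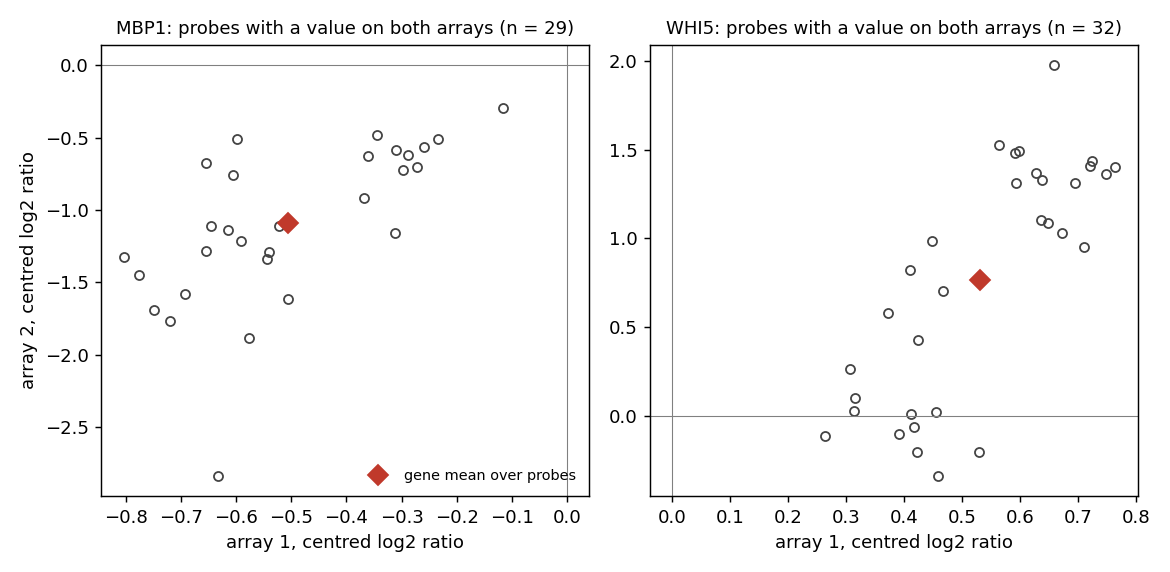
Centred log2 ratio on array 1 (x axis) and array 2 (y axis) of each probe of *MBP1* (left) and *WHI5* (right) with a value on both arrays; circles are probes and the red diamond is the mean over all probes of the gene. The 29 *MBP1* probes are negative on both arrays, and the *WHI5* probes above 0.56 on array 1 sit between 0.95 and 1.98 on array 2.

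*STB1*, whose product binds Swi6 and takes part in G1/S transcription, had opposite signs on the arrays. It stood at -0.30 on array 1 and 0.31 on array 2, where its probes read 0.65 and -0.04. *BCK2*, which encodes an activator of G1/S genes that acts in parallel to Cln3, was likewise negative on array 1, at -0.27, and positive on array 2, at 0.67. Its probes did not overlap between the arrays, with -0.18 and -0.35 on array 1 and 0.45 and 0.89 on array 2. No direction can be given for either gene.

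*CLN3*, the gene of the upstream G1 cyclin that acts on Whi5, was weakly positive on both arrays, at 0.17 and 0.61. Its probes read 0.26 and 0.08 on array 1 and 0.61 each on array 2. *CLN1*, the gene of a G1 cyclin expressed under SBF, was weakly negative on both arrays, at -0.20 and -0.23. Its arrays differed by 0.03, the smallest gap among the 8 members, and it ranked 1091st lowest of 4370 genes on array 1 and 1345th lowest of 4224 on array 2. The paralogous *CLN2* had no value, so the cyclins Cln1 and Cln2 could not be compared.

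*SIC1*, which encodes the inhibitor of the Clb5 and Clb6 kinases, stood at 1.17 on array 1 and 1.51 on array 2, or 2.25-fold and 2.84-fold higher. Both values came from the same single probe, since its other probe had no value on either array. It ranked 261st highest of 4370 genes and 513th highest of 4224. Other genes thus stood higher on both arrays, although *SIC1* was the highest of the members.

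**Figure D3:**
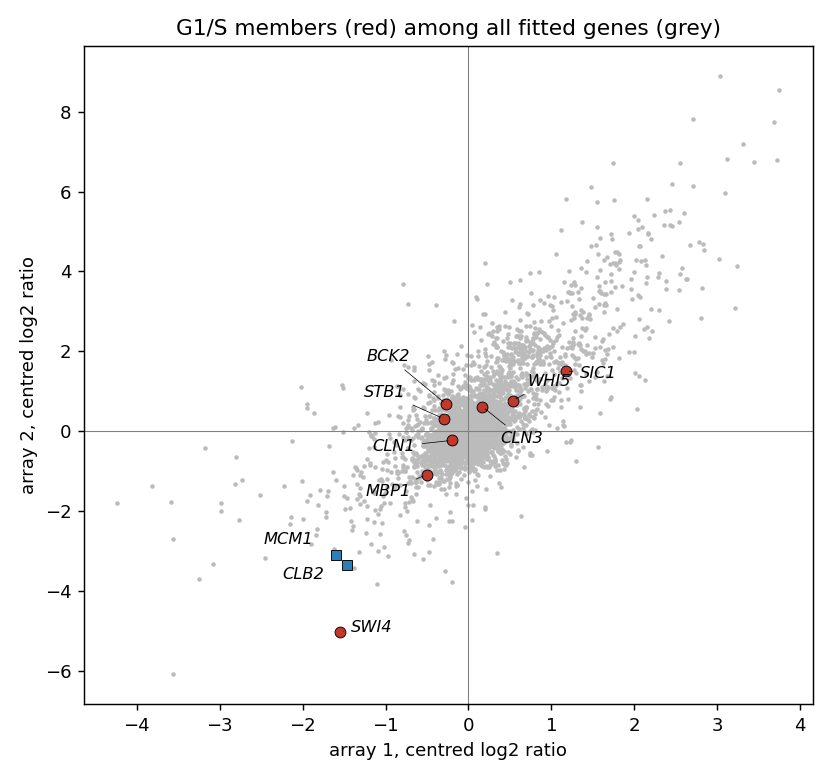
Centred log2 ratio on array 1 (x axis) against array 2 (y axis) for the 4048 fitted genes (grey), the 8 measured members (red circles) and the related genes *CLB2* and *MCM1* (blue squares). *SWI4* lies at the lower edge of the cloud at -1.55 and -5.04, while *MBP1* lies at -0.51 and -1.09 and *SIC1* at 1.17 and 1.51.

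In the set of 8 measured members, *SWI4* was the 1 gene that reached -1 or lower on both arrays, as did 2.03% of the 4048 fitted genes. *SIC1* was the 1 gene that reached 1 or higher on both, as did 6.4% of the fitted genes. Negative on both arrays were 3 members (*SWI4*, *MBP1* and *CLN1*), against 33.9% of fitted genes. Positive on both were 3 (*WHI5*, *CLN3* and *SIC1*), against 34.7%. Since the members were chosen on this contrast, nothing is read from these shares. By limma with Benjamini-Hochberg adjustment over all 4048 genes, 0 genes were called in the screen (0%), with a lowest adjusted p of 0.227, while 678 genes had p under 0.05 before adjustment. Scaling both arrays to one median absolute deviation gave 456 called genes (11.3%), and quantile normalization 414 (10.2%). Whether a member was among them is not given, since the members were chosen on these values.

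Scaling also narrowed the gap of *SWI4* between arrays without closing it. With equal median absolute deviations it stood at -2.09 and -3.74, and after quantile normalization at -1.58 and -4.57. *MBP1* then stood at -0.68 and -0.81 by the first scaling, and *WHI5* at 0.71 and 0.57. The size of the ratio on array 2 over that on array 1 had been 3.24 for *SWI4*, 2.15 for *MBP1*, 1.44 for *WHI5* and 1.29 for *SIC1* before scaling, beside 1.81 for the median absolute deviation of all probes. For *SWI4* this sets the mean of 2 probes on array 1 against 1 probe on array 2. The probe measured on both arrays read -1.96 and -5.04.

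The genes whose pair of values lay nearest to that of *SWI4*, by Euclidean distance over the 2 arrays, were *BNI1* (distance 1.28), *VPS21* (1.61), *CLB2* (1.69), *NOP4* (1.75) and *CLA4* (1.85). *BNI1*, a formin gene, stood at -1.11 and -3.83, and *CLA4*, the gene of a kinase of bud emergence and septins, at -0.20 and -3.78. *VPS21*, the gene of an endosomal Rab, stood at -1.38 and -3.43, and *NOP4*, a ribosome assembly gene, at -1.44 and -3.29. All 5 were lower on array 2 than on array 1, which follows from picking them by closeness to *SWI4*. Nothing is read from it.

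Of the genes next to *SWI4* along the chromosome, *KAP123*, a karyopherin gene, had a value on array 1 only, of -0.86 from 1 probe. The gene beyond it with values on both arrays, *FLO8*, a transcription factor gene, stood at 0.08 on array 1 and -0.46 on array 2. On the other side *LSM4*, the gene of an Sm-like RNA-binding protein, stood at 2.57 and 4.09. Neither gene with values on both arrays was as low as *SWI4* on either. Around the unmeasured *SWI6*, *TOS4* stood at -0.73 and -0.44, and *VTA1*, on the other side, at -1.14 and -0.20.

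Other genes of the G1/S switch were followed in 5 lists, which were drawn up with earlier results of these data known. Of their 56 genes 43 were fitted. On both arrays 2 of these reached -1 or lower, and 0 reached 1 or higher, where 2.03% and 6.4% of all fitted genes did. Limma called 0 of the 43, but also 0 of all 4048 fitted genes, so that count says nothing particular of them. With equal median absolute deviations it called 3 of the 43, beside 11.3% of all fitted genes. After quantile normalization it called 3, beside 10.2%. The 43 had a median mean ratio of -0.15, beside -0.01 for all fitted genes. Of the 43, 25 were negative on both arrays and 10 positive on both, against 33.9% and 34.7% of all fitted genes. These shares hold as the background of the sign counts of each list below, and with 6 to 12 fitted genes a list nothing is read from them.

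The list of other cyclins held 1 of the 2 low genes. *CLB2*, the gene of the main mitotic cyclin, stood at -1.47 on array 1 and -3.35 on array 2, a mean of -2.41 ± 1.33, and was 14th lowest of the fitted genes by mean. Each value came from 1 of its 2 probes. *CLB1*, the gene of the closely related mitotic cyclin and named after its values were seen, stood at -0.54 and -0.68. Of the 7 fitted cyclin genes, 5 were negative on both arrays and 1 positive on both, with a median of -0.18. The positive one was *CLB4*, also named after its values were seen, at 0.42 and 0.80.

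That list also covers the S-phase cyclins that Sic1 inhibits and the Pho85 cyclins of G1. *CLB6* stood at -0.05 and -0.27, and *CLB5* had a value on array 1 only, of -0.09. *PCL1*, a cyclin gene expressed under SBF, stood at -0.36 and -0.59. These 3 genes were also named after their values were seen, and none was beyond 1 on either array.

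The other low gene was *MCM1* among the other G1/S transcription regulators. It encodes the MADS-box factor that acts, among other places, at genes transcribed between mitosis and G1, including *SWI4* and *CLN3*. It stood at -1.60 and -3.10, a mean of -2.35 ± 1.06, from the only probe it has, and was 18th lowest by mean. Of the 12 fitted genes of this list 7 were negative on both arrays and 2 positive on both, with a median of -0.29 (-0.12 on array 1 and -0.52 on array 2). *WHI4*, a paralogue of the *CLN3* mRNA-binding *WHI3* and named after its values were seen, stood at -0.41 and -1.37 with all 4 probes measured, while *WHI3* itself had no value. *NRM1*, the gene of the corepressor of MBF, stood at -0.07 and -0.44. The 2 genes positive on both arrays, also named after their values were seen, were *SRL3*, at 0.12 and 0.89, and *HCM1*, at 0.25 and 0.70.

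Among the partners of the cyclins, the kinase gene *CDC28*, through which Cln1, Cln2 and Cln3 act, stood at -0.18 and -0.09. The lowest of the 6 fitted genes was *CDC4*, which encodes the F-box protein that recognises phosphorylated Sic1, at -0.15 and -1.38. The highest was *CKS1*, the gene of a small subunit of the Cdc28 kinase, at 0.93 and 0.34. Other genes that act with *CDC4* in ubiquitination had values of -0.08 and -0.28 for *CDC34*, -0.20 and -0.19 for *CDC53*, and 0.74 and -0.61 for *SKP1*. The list had a median of -0.16, with 4 genes negative and 1 positive on both arrays.

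The list of genes transcribed under SBF and MBF had a median of -0.07 over 11 fitted genes. Of these 10 lay within 0.5 of 0 by mean, as did 70.1% of all fitted genes. The list leaves out targets placed elsewhere, such as *PCL1* among the other cyclins, and its genes *GIC1*, *SVS1*, *RNR1* and *RAD27* were not fitted. The lowest fitted gene was *SMC3*, a cohesin gene, at -0.14 and -0.40. The highest was *SPT21*, which encodes a factor for histone gene transcription, at 0.18 on array 1 from 1 probe and 2.92 on array 2, where its probes read 2.83 and 3.02. Its arrays thus did not give a common size. In this list 5 genes were negative on both arrays and 3 positive on both.

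The cell wall integrity pathway, whose kinase Slt2 phosphorylates Swi6, had genes on both sides of 0. *BCK1*, the gene of its MAP kinase kinase kinase, was the lowest of the 7 fitted, at -0.26 and -1.20, and *SLG1*, the gene of the cell surface sensor also known as *WSC1*, was the highest, at 0.83 and 1.85. *ROM2*, the gene of an exchange factor for Rho1 and named after its values were seen, stood at 0.62 and 1.97. *SLT2* stood at -0.84 on array 1 and -2.60 on array 2, where its probes read -5.21 and 0.00. It lies within 50 kb of *PIH1*, in the region of low ratios described above, and was kept out of the fit.

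**Figure D4:**
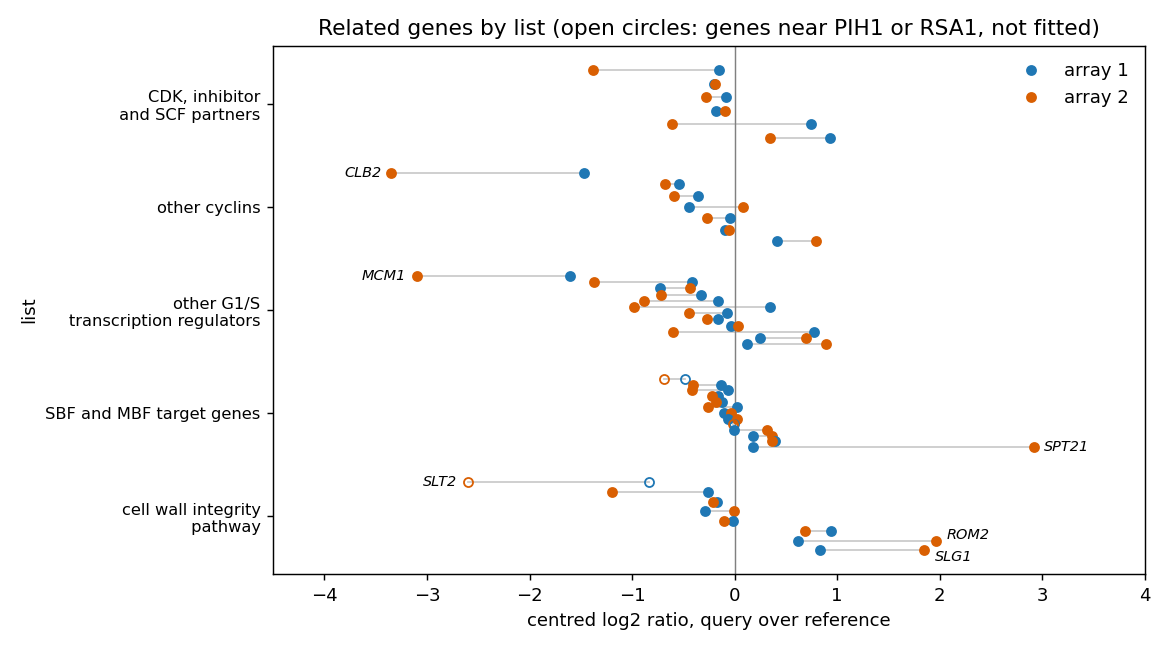
Centred log2 ratio (x axis) on array 1 (blue) and array 2 (orange) of each related gene with a value on both arrays, 1 line per gene, grouped by list. Open circles are genes within 100 kb of *PIH1* or *RSA1*, which were not fitted; *CLB2* and *MCM1* are the fitted genes at or below -1 on both arrays.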

How the data were processed

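The authors deposited 1 log ratio of both channels per probe and array, read here as log2. Per the labels, barcodes were amplified with Cy3 primers for the query pool and Cy5 primers for the reference pool. How these ratios were normalized, centred and filtered, their direction and their log base are not given in the sources. The lowest and highest values, -4.79 and 3.91 (array 1) or -6.36 and 9.40 (array 2), are wider apart than log10 ratios would be, but a natural log is possible. The column medians were -0.06 and -0.27, and each array was centred on its own. Of 15744 probes, 10998 had a value on array 1 and 10382 on array 2. Channel intensities were not analysed here.

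Probes were named from the platform annotation, with older symbols replaced by those of the R64 assembly, and averaged per gene and array. The 4048 genes with a value on both arrays and over 100 kb from *PIH1* and *RSA1* were fitted with limma 3.58.1 (R 4.3.3; intercept, eBayes, Benjamini-Hochberg at 0.05). The code of the fit was run on simulated data with the same spread for all genes and both arrays. Array 2 was wider than array 1 here, so that run does not show how the fit does on these data. The reference pool's own spread does not enter the fit, and the smallest p of an exact two-sided sign-flip test of 2 arrays is 0.5. Python 3.11.15 with pandas 2.3.3 and matplotlib 3.10.9 was used otherwise.

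The members and lists were chosen with earlier results of these data known. The text names all 10 members, the genes of each list at or beyond 1 in the same direction on both arrays or else its lowest and highest gene, the measured neighbours of *SWI4* and the 5 genes nearest to it. Other genes were added after their values were seen. Alternatives were no centring, 2 scalings, other summaries of probes, other limits, each array alone, robust eBayes, and the query regions kept in. The reading as natural logs was added after seeing the data.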

Additional observations from a re-analysis of the deposited data

How the results depend on the processing

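No paired analysis was possible because the arrays form 1 group. Each measured member was recomputed under 8 alternatives. Not all of them could change a sign: the natural-log reading cannot, and the median of 1 or 2 probes equals their mean. For a gene with the same sign on both arrays, equal median absolute deviations or a single array cannot change it either. That left no centring, quantile normalization and, for some genes, the choice of probes. *SWI4* stayed between -5.04 and -1.55, *MBP1* between -1.15 and -0.51, *WHI5* between 0.48 and 0.93, *CLN3* between 0.17 and 0.61, *CLN1* between -0.38 and -0.20 and *SIC1* between 1.17 and 1.93, so these 6 kept their sign. By single array, *SWI4* was -1.55 or -5.04, and *STB1* (-0.30 or 0.31) and *BCK2* (-0.27 or 0.67) changed sign. *STB1*, at 0.00 as reported, was -0.09 with either scaling and -0.16 uncentred. Values left uncentred lie 0.17 lower for every gene, which put *WHI5* at 0.48, *CLN1* at -0.38, and the list medians at -0.32 (partners of the cyclins), -0.35 (other cyclins), -0.23 (SBF and MBF targets) and -0.23 (cell wall integrity). Read as natural logs, every value is multiplied by 1 constant, which put *WHI5* at 0.93, *CLN1* at -0.31, *SIC1* at 1.93, and those last 3 medians at -0.26, -0.099 and -0.086. The median of other cyclins was -0.27 with equal median absolute deviations and -0.25 after quantile normalization. By single array it was -0.27 or -0.36, that of the other regulators -0.52 or -0.12, that of the partners of the cyclins -0.23 or -0.12, that of the SBF and MBF targets -0.034 or -0.065, and that of the cell wall list -0.0040 or -0.019.

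The members low and high on both arrays, 1 each at a limit of 1, were 2 each at a limit of 0.5 and 0 each at a limit of 2; on array 2 alone 2 members were at or below -1. The 2 low related genes were 0 at a limit of 2, and 2 or 5 on a single array. The count of high related genes, 0 as reported, was 3 at a limit of 0.5, 0 or 3 on a single array, and 1 with equal median absolute deviations, after quantile normalization and read as natural logs. Limma's count, 0 as centred, was 456 with equal median absolute deviations and 414 after quantile normalization; it stayed 0 uncentred, with the median of the probes, with probes measured on both arrays, with robust eBayes and with the query regions kept in. Scaling takes the wider spread of array 2 out of the difference between arrays; how far it accounts for the calls was not tested. Without 1 array no residual degrees of freedom remain, so limma was not run that way. Signal over background was not analysed here.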

Other observations

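Some genes of the G1/S lists had a value on array 1 only, and were named after their values were seen. *GRR1*, the gene of the F-box protein that marks Cln1 and Cln2 for destruction, stood at 3.52 from 1 probe, and *RAD27*, a replication nuclease gene transcribed under MBF, at 2.26 from 2 probes. *CLB3*, a mitotic cyclin gene, stood at 0.41 from 1 of 4 probes. *FAR1*, *PHO85*, *RNR1*, *RHO1* and *MID2* had no value on either array.

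*GIC1*, an SBF target gene within 100 kb of *PIH1*, stood at -0.48 and -0.69, and its paralogue *GIC2*, away from that region, at 0.40 and 0.36. Besides *MBP1* and *WHI5*, only *HAP5* and *RNR3* of the 11 genes spotted 32 times or more had values on both arrays, 16 of 32 probes in the case of *HAP5*. Averaged over spots, *RNR3* stood at -0.19 and -0.79, and *HAP5* at 0.17 and 0.69. Of the other 7 genes, 5 had no value on any spot.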
